A study of Mus musculus with 2 samples.

Results

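The cells described here were those annotated Tem/eff, the annotation's name for effector memory and effector T cells, in heart allografts of mice. They were chosen by that annotation alone and numbered 327 of 4441 cells. The grafts were hearts of the Bm12 strain, which carries a mutated MHC class II molecule, transplanted into C57BL/6 recipients and taken 14 days later. Hearts 1 to 3 were labelled BM12 WT, and hearts 4 to 6 were labelled BM12 IL33 KO, whose donors lacked the *il33* gene. Graft-infiltrating cells were enriched on a density gradient, each heart was marked with its own hashtag antibody, and the 6 hearts were pooled into 1 gene expression library. The comparison of the groups asks how the graft's IL-33, an alarm cytokine released by injured stromal cells, relates to the T cells inside the graft.

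Effector T cells are lymphocytes that have met antigen, divided and acquired cytokines or cytotoxic granules. Effector memory T cells are their long-lived relatives that patrol tissues, and both classically lack CCR7, the receptor that takes naive and central memory T cells into lymph nodes. In a graft mismatched for MHC class II, CD4+ T cells see the foreign class II molecule directly, and CD8+ T cells take part to a lesser degree.

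The 327 Tem/eff cells came to 54, 23 and 86 cells in hearts 1 to 3 and to 64, 42 and 58 cells in hearts 4 to 6. They held 2848 to 14643 unique molecular identifiers (UMIs, each 1 captured transcript), with a median of 5693 UMIs and 2339 genes. The medians of the 6 hearts lay between 5128 and 6317 UMIs. Tem/eff cells were thus read more deeply than cells annotated Tregs (median 2860), Trm-like (2706), Tn (2764) or Tcm cells (4039), so shares of cells with a UMI are given after every cell was thinned at random to 1500 UMIs. None of the 4441 barcodes was repeated. Transcripts of *Il33* did not check the labels: fibroblasts, the main carriers, held 7, 0 and 121 *Il33* UMIs in hearts 1 to 3 and 9, 3 and 5 in hearts 4 to 6. The reads that this library counts need not come from the deleted part of the gene, and Tem/eff cells themselves held 2 *Il33* UMIs in all.

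The annotation was first set against its markers. *Cd3e*, a signalling chain of the T cell receptor, averaged 573 CPM (the UMIs of a gene scaled to a common total per cell, then averaged over cells) over the Tem/eff cells, above Tn (259) and Tcm cells (284). *Cd4*, the helper coreceptor, averaged 294 CPM, below Tregs (404) and above Trm-like cells (82.9) and Tn cells (70.3). *Ctla4*, an inhibitory receptor of activated T cells, averaged 742 CPM and *Icos*, a costimulatory receptor, 512 CPM. Both lay below Tregs (1605 and 1071 CPM) and above the other 3 annotated T cell types. *Ifng*, the defining cytokine of the Th1 response, averaged 110 CPM against 14.0 CPM in Tn cells and 146 CPM in Tregs. It was at 58.8 CPM in Tcm cells and 89.5 CPM in Trm-like cells, and exceeded the Tcm level in 3 of 6 hearts. After thinning, an *Ifng* UMI was found in 9.48% of Tem/eff cells, 11.9% of Trm-like cells and 15.6% of Tregs. The shares were 7.89% of Tcm cells and 2.06% of Tn cells. *Ifng* thus did not mark Tem/eff cells above Trm-like cells or Tregs once thinned. These genes were among those on which the cells were clustered and named, so the differences between types are descriptions and carry no test.

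The level of *Ccr7* went against the name. *Ccr7* (chromosome 11, 99144196 to 99155077 on GRCm38) averaged 888 CPM over Tem/eff cells, where effector memory cells should have little. It was at 607 CPM in Tn cells, 150 CPM in Tcm cells, 145 CPM in Tregs and 103 CPM in Trm-like cells. By heart, the Tem/eff level was 524, 1227 and 830 CPM in hearts 1 to 3 and 1392, 446 and 942 CPM in hearts 4 to 6. It was above the Treg level of the same heart in 6 of 6 hearts and above the Tn level in 4 of 6. At 1500 UMIs per cell a *Ccr7* UMI was found in 140 of 327 Tem/eff cells (42.8%, 95% Wilson interval 37.6 to 48.2), in 51.4% of Tn cells and in 14.3% of Tcm cells. Fibroblasts, which should lack it, gave 2.67%, at a median depth of 5789 UMIs. All intervals cover counting error only.

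The other genes of naive and central memory cells did not share this level. *Klf2*, the transcription factor that drives exit into blood, averaged 123 CPM in Tem/eff cells against 1583 CPM in Tn cells, and its values by heart were 83.5, 71.0 and 226 CPM in hearts 1 to 3 and 72.9, 61.4 and 128 CPM in hearts 4 to 6. *Lef1* (22.7 against 557 CPM), *S1pr1*, the receptor for exit from tissue (152 against 976 CPM), *Tcf7* (199 against 500 CPM) and the chromatin organizer *Satb1* were each below the Tn level of the same heart in 6 of 6 hearts. Of the 8 genes in this list, Tem/eff cells were the highest of the 5 annotated T cell types only for *Ccr7*. The cells are therefore called Tem/eff below, by their annotation.

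**Figure D1:**
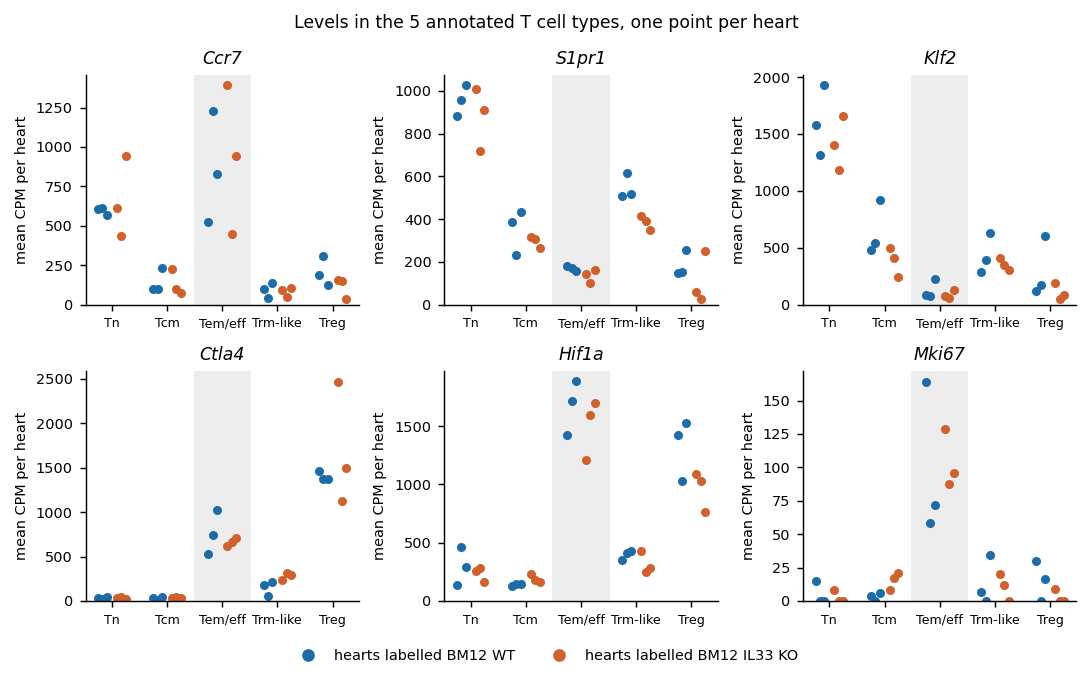
Mean CPM of 6 genes (vertical axes) in the 5 annotated T cell types (horizontal axes), 1 point per heart, blue for hearts labelled BM12 WT and orange for BM12 IL33 KO, with Tem/eff shaded. *Ccr7* lay between 446 and 1392 CPM in Tem/eff cells while *S1pr1* stayed between 99.9 and 180 CPM, and *Mki67* was above every other type in each heart.

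Of 3577 genes at 50 CPM or more in Tem/eff cells, 33 (0.923%) were at least 2-fold above the next highest of the other 4 T cell types, and the first by that ratio was *Mki67*, the proliferation antigen Ki-67. *Mki67* averaged 104 CPM, 6.50 times the level in Trm-like cells, with 164, 58.0 and 72.1 CPM in hearts 1 to 3 and 129, 87.6 and 96.0 CPM in hearts 4 to 6. Among the 15 genes with the highest ratios, *Pclaf* (6.39-fold) and *Uhrf1* (3.87-fold) act at the replication fork, *Kif15* (6.17-fold) is a spindle motor, *Top2a* (3.86-fold) and *Smc2* (3.17-fold) act on chromosome structure, *Rrm2* (3.45-fold) makes deoxynucleotides and *Hist1h2ap* (4.26-fold) is a histone gene with near-identical copies. The rest were *Stfa3* (5.49-fold), *Nrn1* (4.45-fold), *Bdh2* (3.98-fold), the inhibitory ligand *Cd200* (3.95-fold), the Hedgehog receptor *Ptch1* (3.53-fold), the acyl-CoA binding protein *Dbi* (3.19-fold) and the matricellular gene *Ccn4* (3.08-fold).

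In the cell cycle lists, of 13 S phase genes, Tem/eff cells held the highest level of the 5 T cell types for 12, and of 15 genes of G2 and M phase for 14. The exceptions were *Mcm4* (55.2 CPM in Tem/eff and 61.3 CPM in Tn cells) and *Cenpa* (105 CPM in Tem/eff and 122 CPM in Tn cells). At 1500 UMIs per cell, 3 or more of these 28 genes were found in 103 of 327 Tem/eff cells (31.5%, interval 26.7 to 36.7), against 14.8% of Tregs, 8.27% of Tcm cells and 6.17% of Tn cells. For fibroblasts the share was 2.93%. With 2 or more G2 and M genes, leaving out *Cenpa*, the shares were 13.5% of Tem/eff cells and 0.760% of Tregs. NKT cells, annotated apart from the 5 T cell types and of like depth (median 5741 UMIs), came closest, with 19.0% for 3 or more cell cycle genes and 7.49% for 2 or more G2 and M genes. Their *Mki67* level was 59.5 CPM, and without thinning 3 or more cell cycle genes were found in 70.0% of NKT cells and 72.5% of Tem/eff cells.

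Glycolysis genes were also high in Tem/eff cells. *Hif1a*, the hypoxia-inducible transcription factor, averaged 1594 CPM against 1233 CPM in Tregs and 369 CPM in Trm-like cells, and exceeded the Treg level in 6 of 6 hearts. Of 13 genes in the glycolysis list, 10 were highest in Tem/eff cells of these 5 types. Among them were *Pgk1* (559 CPM), *Gapdh* (529 CPM) and *Pkm* (397 CPM), which were above the Treg level in 6 of 6 hearts. Macrophages were higher for *Pgk1* (837 CPM) and *Pkm* (590 CPM) and lower for *Gapdh* (484 CPM). The exceptions among the T cell types were *Pfkp* and the glucose transporters *Slc2a1* and *Slc2a3*.

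The costimulatory and inhibitory receptors came second to Tregs for most genes. *Tnfrsf4*, which encodes OX40, averaged 702 CPM (743 CPM in Tregs), *Lag3* 586 CPM (774 CPM in Tregs) and *Pdcd1*, which encodes PD-1, 173 CPM (263 CPM in Tregs). *Tnfrsf4* did not part the types, with Tem/eff above Treg in 3 of 6 hearts. *Cd200* and *Btla* were the 2 of 14 receptors highest in Tem/eff cells, at 168 and 44.5 CPM, each above Tregs in 6 of 6 hearts. *Il2ra*, the high-affinity IL-2 receptor chain, averaged 285 CPM against 277 CPM in Tregs, but was above the Treg level in 2 of 6 hearts, and was at 25.8 CPM or less in the other 3 T cell types.

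Genes of several helper subsets were detected, and whether the same cells held them was not tested. *Stat4*, which transmits IL-12 signals, averaged 339 CPM, *Cxcr6* 258 CPM and the Th1 regulator *Tbx21* 53.9 CPM. *Gata3*, the Th2 regulator, averaged 330 CPM (675 CPM in Tregs) and *Rora* 508 CPM (835 CPM in Tregs). The follicular helper genes *Bcl6* (114 CPM), *Slamf6* (72.7 CPM) and *Sh2d1a* (60.3 CPM) were highest in Tem/eff cells of the 5 types, as were 5 of the 7 genes in that list, but *Cxcr5*, the receptor that leads these cells to B cell follicles, was at 1.99 CPM. Granule and effector chemokine genes were lower than in Trm-like cells for 11 of the 12 genes of the list, for example *Gzma* (243 against 1377 CPM) and *Ccl5* (382 against 3149 CPM). The exception was *Ccl3* (60.0 against 35.5 CPM).

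Of the Treg genes, *Foxp3*, the lineage factor, averaged 37.1 CPM against 128 CPM in Tregs. A *Foxp3* UMI was found in 29 of 327 Tem/eff cells, and at 1500 UMIs per cell in 17 cells (5.2%, interval 3.27 to 8.17), against 13.7% of Tregs and 0 of 375 fibroblasts. *Areg*, which encodes the repair factor amphiregulin, averaged 122 CPM against 278 CPM in Tregs and 4.15 CPM in Tn cells. The share of cells with an *Areg* UMI at 1500 UMIs per cell was nearly the same, 11.6% of Tem/eff cells (interval 8.58 to 15.5) and 12.5% of Tregs. *Il10* averaged 152 CPM against 414 CPM in Tregs, with shares of 9.79% and 24.7% at that depth. *Il1rl1*, which encodes the IL-33 receptor ST2, averaged 45.9 CPM against 477 CPM in Tregs, and was below the Treg level in 6 of 6 hearts.

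Within Tem/eff cells, coreceptor transcripts split the cells unevenly. The counts in this paragraph are at each cell's full depth, without thinning. A *Cd4* UMI without a *Cd8a* or *Cd8b1* UMI was found in 203 of 327 cells (62.1%), a *Cd8a* or *Cd8b1* UMI without *Cd4* in 55 (16.8%), both in 15 (4.59%) and neither in 54 (16.5%). These shares depend on depth: at 1500 UMIs per cell a *Cd4* UMI was found in 30.6% of the cells, against 66.7% without thinning, and a Cd8 UMI in 13.5%, against 21.4%. The 70 cells with a Cd8 UMI numbered 18, 2 and 14 in hearts 1 to 3 and 18, 4 and 14 in hearts 4 to 6, so hearts 2 and 5 carried few of them. *Ccr7* UMIs were found in 125 of the 203 cells with *Cd4* alone (61.6%) and in 17 of the 55 with Cd8 alone (30.9%).

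Cells with and without a Cd8 UMI were then compared within each heart, on the mean CPM of each heart (n = 6 hearts). The examples were picked for the size of their difference, so no test applies. Cells with a Cd8 UMI had more *Gzmk* (188 against 8.09 CPM), *Klrd1*, a natural killer receptor chain of cytotoxic cells (204 against 29.3 CPM), *Ly6c2*, which has a near-identical copy (490 against 7.51 CPM), and the granule gene *Nkg7* (798 against 269 CPM), each in 6 of 6 hearts. They had less *Tnfrsf4* (179 against 839 CPM), *Il2ra* (74.9 against 330 CPM), *Areg* (29.2 against 134 CPM), *Cd200* (40.4 against 203 CPM) and *Hif1a* (686 against 1793 CPM), also in 6 of 6 hearts. *Gzma* averaged 945 ± 816 CPM (SD, n = 6) with a Cd8 UMI and 67.0 ± 47.3 CPM without, and was higher in 5 of 6 hearts. The median depth was 6601 UMIs with a Cd8 UMI and 5487 without, and its part in these differences was not tested. Of 4040 genes at 50 CPM or more, 5.17% were higher and 7.92% lower in all 6 hearts.

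The cells were next split by a *Ccr7* UMI, and this split was related to the split by Cd8. Without thinning, a *Ccr7* UMI was found in 23 of the 70 cells with a Cd8 UMI (32.9%). It was found in 131 of the 218 cells with a *Cd4* UMI (60.1%). The part of Cd8 in the differences below was not tested. The 187 cells with a *Ccr7* UMI and the 140 cells without had nearly equal median depths, 5693 and 5701 UMIs. Of 3906 genes at 50 CPM or more in either part, 243 (6.22%) were higher and 266 (6.81%) lower with a *Ccr7* UMI in all 6 hearts. The examples were again picked for their size. Cells with *Ccr7* had more *Spp1*, which encodes the secreted protein osteopontin (888 against 232 CPM), *Ptch1* (189 against 47.6 CPM), *Bach2*, a repressor of effector programmes (130 against 36.4 CPM), *Klf4*, a transcription factor that restrains division (442 against 161 CPM), *Igf1r* (237 against 85.0 CPM) and *Cd200* (241 against 78.6 CPM). *Spp1* UMIs were also found in types other than T cells: at 1500 UMIs per cell the share was 21.4% of Tem/eff cells, 14.0% of B cells, 7.47% of fibroblasts and 25.6% of macrophages, and the part of free RNA was not tested. *Hif1a* was at 1947 ± 348 CPM with and 1137 ± 250 CPM without (SD, n = 6), higher in 6 of 6 hearts. *Tcf7* was higher in 5 of 6 hearts (264 against 110 CPM).

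Cells without a *Ccr7* UMI had more of several effector genes. *Gzmb*, which encodes granzyme B, was at 221 CPM without and 25.8 CPM with a *Ccr7* UMI, *Cxcr6* at 438 and 125 CPM, *Havcr2*, which encodes the inhibitory receptor TIM-3, at 53.1 and 2.76 CPM, *S100a4* at 1285 and 403 CPM and *Lgals1* at 1183 and 485 CPM, each in 6 of 6 hearts. The mean level of *Cd4* did not part them, at 308 ± 115 CPM without and 307 ± 56.6 CPM with (SD, n = 6). Cd8 did: 32.9% of the cells with a Cd8 UMI had a *Ccr7* UMI, against 57.2% of all Tem/eff cells. The part of cells with Cd8 in the higher effector genes was not tested. Of the S phase list, 6 of 11 genes at 50 CPM or more were lower with a *Ccr7* UMI in 6 of 6 hearts, and none was higher in all of them. *Mki67* was at 67.9 CPM with and 144 CPM without.

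**Figure D2:**
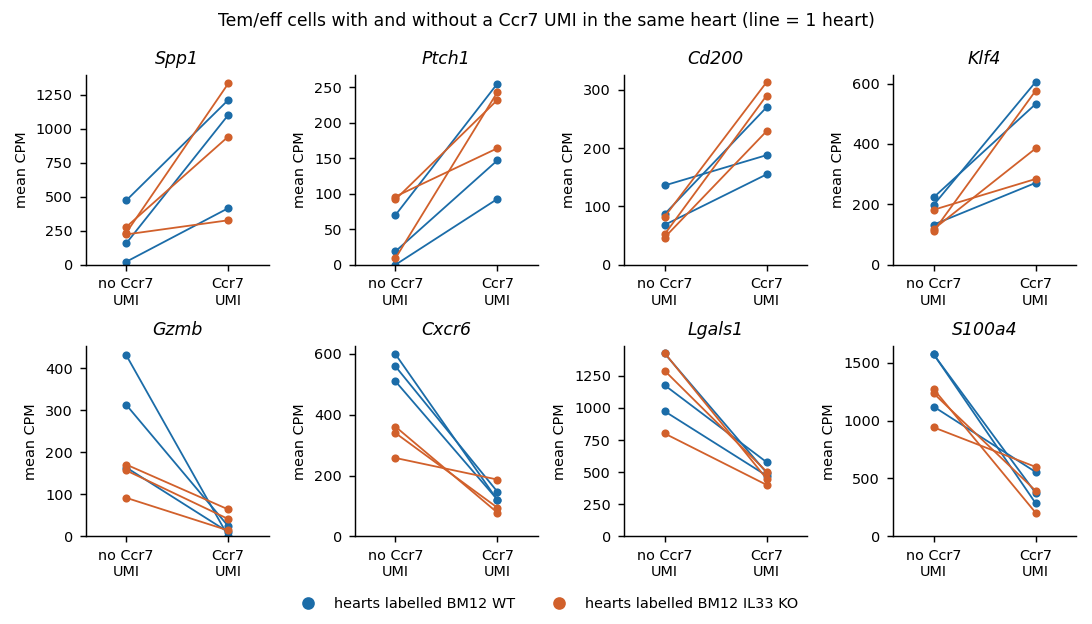
Mean CPM (vertical axes) of 8 genes in Tem/eff cells without and with a *Ccr7* UMI; each line joins both parts of 1 heart, blue for BM12 WT and orange for BM12 IL33 KO. All 6 lines rise for *Spp1*, *Ptch1*, *Cd200* and *Klf4* and all 6 fall for *Gzmb*, *Cxcr6*, *Lgals1* and *S100a4*; the genes were chosen for this difference.

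Cells were also split by their cell cycle transcripts. The 109 cells with UMIs of 6 or more of the 28 cell cycle genes were deeper (median 7969 UMIs) than the other 218 (median 5105), and the part of depth in what follows was not tested. They had less *Ccr7* (438 against 1104 CPM), *Hif1a* (975 against 1889 CPM), *Igf1r* (84.6 against 216 CPM), *Tnfrsf4* (430 against 853 CPM), *Ramp3* (247 against 584 CPM) and *Plagl1* (102 against 291 CPM), each in 6 of 6 hearts, where 8.96% of 3975 genes were lower and 8.98% higher in all 6. *Nr4a2* and *Nr4a3*, early response genes of T cell receptor signalling, were at 463 and 498 CPM in cycling cells against 811 and 881 CPM in the others. *Icos* (526 ± 129 against 490 ± 75.7 CPM) and *Pdcd1* (178 ± 60.1 against 165 ± 69.4 CPM) overlapped.

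Tem/eff cells made up 6.24%, 10.0% and 5.16% of all cells in the hearts labelled BM12 WT and 7.66%, 14.8% and 10.4% in the hearts labelled BM12 IL33 KO. The group means differed by -3.81 percentage points (BM12 WT minus BM12 IL33 KO), with a two-sided exact permutation p of 0.20, and heart 2 overlapped the other group. The smallest p that 3 hearts against 3 can give is 0.10. Of the 5 annotated T cell types, Tem/eff cells were 24.2%, 22.8% and 20.4% in hearts 1 to 3 and 18.7%, 25.6% and 27.6% in hearts 4 to 6, a difference of -1.51 points (exact p = 0.70).

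Inside the Tem/eff cells, the shares with a given transcript at 1500 UMIs per cell did not part the groups beyond their spread. The *Cd4* share was 29.6%, 30.4% and 40.7% in BM12 WT and 25%, 21.4% and 29.3% in BM12 IL33 KO. These hearts did not overlap, with the smallest exact p possible (0.10), but without thinning the shares did overlap (68.8 ± 8.28% against 64.9 ± 2.15%, SD, n = 3 each, exact p = 0.40). A Cd8 UMI was found in 12.4 ± 6.91% and 14.0 ± 5.64% (exact p = 0.60), *Ifng* in 10.3 ± 10.2% and 6.44 ± 2.55% (exact p = 0.60) and *Foxp3* in 3.46 ± 1.03% and 7.45 ± 3.47% (exact p = 0.30). For 3 or more cell cycle genes the shares were 29.9 ± 3.64% and 31.8 ± 3.75% (exact p = 0.50). Without thinning they were 72.2%, 73.9% and 61.6% in BM12 WT and 78.1%, 78.6% and 77.6% in BM12 IL33 KO. Those hearts did not overlap (exact p = 0.10). Their median depths were 5505, 5128 and 5288 UMIs in BM12 WT and 6317, 5714 and 5678 UMIs in BM12 IL33 KO, and the part of depth was not tested. With 3 hearts a group, none of these tests could have reached 0.05 before or after adjustment over the shares compared.

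**Figure D3:**
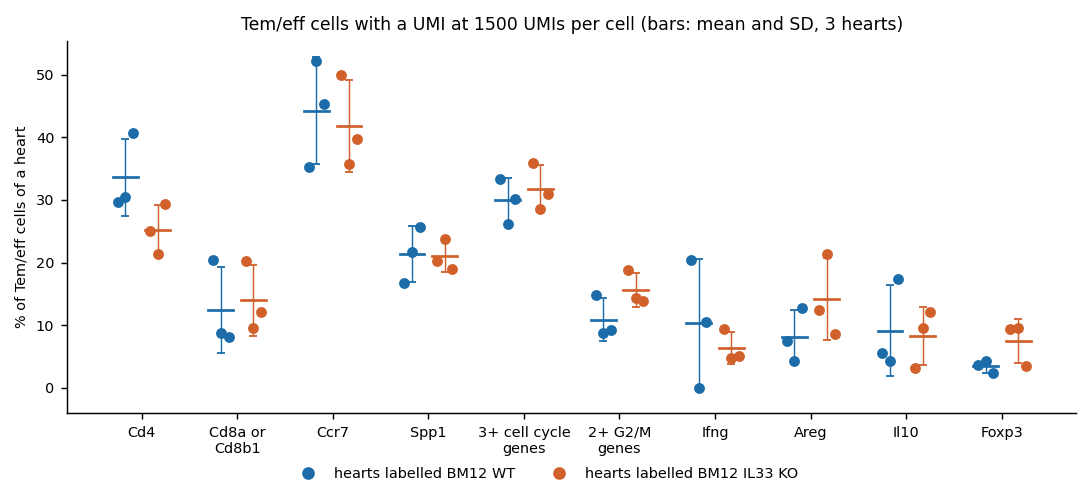
Percent of the Tem/eff cells of a heart (vertical axis) with the named transcript or gene set after thinning to 1500 UMIs per cell (horizontal axis), 1 point per heart with mean and SD of 3 hearts, blue for BM12 WT and orange for BM12 IL33 KO. Among the 10 shares drawn, the groups overlap for most; for *Cd4*, BM12 WT hearts sit between 29.6% and 40.7% and BM12 IL33 KO hearts between 21.4% and 29.3%.

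Gene levels were compared between the groups with limma on log2(mean CPM + 10) of each heart's Tem/eff cells, and fold changes below are on that scale, BM12 WT minus BM12 IL33 KO. Of 9392 genes tested, 0 were called at an adjusted p of 0.05 or less (percent called 0), and the smallest adjusted p was 0.436. At an unadjusted p of 0.05 or less there were 196 genes higher (2.09%) and 218 lower (2.32%) in BM12 WT, 4.41% in all. With 2-fold or more besides, the counts were 28 higher (0.298%) and 40 lower (0.426%). A limma-voom fit on the recovered UMIs also called 0, with 471 genes at an unadjusted p of 0.05 or less, and split its 2-fold genes into 147 higher and 83 lower. The hearts did not overlap, with BM12 WT higher, for 398 genes (4.24%) and, with BM12 WT lower, for 469 (4.99%). Every gene named for the comparison of groups below therefore missed the threshold, and the values are given as measured levels. The SEs and p-values do not rest only on a gene's own spread between these hearts. With the mean-variance trend, limma drew each gene's variance towards that of genes of like level. *Gzma* had overlapping hearts and an unadjusted p of 4.64e-05 in limma. *Cd3e* had hearts that did not overlap and an unadjusted p of 0.264 in limma. Fits with a heart left out were moderated in the same way.

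The gene with the smallest p was *Gzma* (chromosome 13, 113093825 to 113100981), which encodes granzyme A, a protease of cytotoxic granules. It was at 491, 206 and 308 CPM in BM12 WT and 68.7, 81.2 and 242 CPM in BM12 IL33 KO, where heart 6 overlapped heart 2 of the other group. The difference was 1.42 (SE 0.30, adjusted p = 0.436). It passed the threshold without heart 2 (1.71, adjusted p = 0.00302), without heart 6 (1.94, adjusted p = 0.00424) and without the cells of highest doublet score (1.54, adjusted p = 0.00644), and turned to -0.82 (adjusted p = 0.994) once cells with a Cd8 UMI were left out. In heart 3, 125 of the 153 *Gzma* UMIs came from 1 cell. *Gzmb* was at 135 ± 54.0 and 80.9 ± 28.6 CPM (SD, n = 3 each), a difference of 0.64 (SE 0.28, adjusted p = 0.998), which likewise turned to -0.93 without the cells with a Cd8 UMI. *Gzmk* was at 87.5, 51.8 and 22.2 CPM against 30.7, 6.73 and 25.8 CPM. Of 12 granule and effector chemokine genes, 10 were higher in BM12 WT (47.2% over all genes). Of these 10, 4 had an unadjusted p of 0.05 or less (2.09% over all genes). The list's median was 0.33, against -0.02 over all genes. Without heart 1 the median was 0.17, with 7 of 11 higher, without heart 5 it was 0.20, and under limma-voom it was 0.62, with 12 of 12 higher. Without the cells with a Cd8 UMI the list's median was 0.30, with 7 of 11 higher.

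*Ifng* (chromosome 10, 118441046 to 118445892) was at 202, 54.6 and 151 CPM in BM12 WT and 66.4, 82.2 and 54.4 CPM in BM12 IL33 KO. Hearts 1 and 3 were above all others and heart 2 lay within the range of the other group. The difference was 0.76 (SE 0.31, adjusted p = 0.998), and without heart 2 it was 1.27 (adjusted p = 0.0299). *Ccl3*, an inflammatory chemokine, behaved alike, at 57.4, 18.6 and 151 CPM against 18.3, 22.5 and 16.9 CPM, with 1.22 (SE 0.42) over all hearts and 1.84 (adjusted p = 0.0225) without heart 2. In heart 3, 1 cell held 43 of its 79 *Ccl3* UMIs. Of the 12 Th1 genes tested, 8 were higher in BM12 WT (47.2% over all genes). Of those 8, 4 reached an unadjusted p of 0.05 (2.09% over all genes), among them *Cxcr6*, *Ifng* and *Il18rap*. The Th1 regulator *Tbx21* was at -0.28. The list's median was 0.24 (0.71 under limma-voom, 0.15 without heart 5, 0.06 without cells with 3 cell cycle genes). Its summed level was 1188 to 1231 CPM in BM12 WT and 914 to 1052 CPM in BM12 IL33 KO. Of all lists, only this one and the glycolysis list had sums that did not overlap. Granule and effector chemokine genes summed to 1123 to 2466 CPM in BM12 WT and 999 to 1451 CPM in BM12 IL33 KO. The sums were 1600 to 1964 and 1792 to 3578 CPM for interferon-stimulated genes, and 809 to 1341 and 1093 to 1415 CPM for Treg genes.

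The 8 genes higher in BM12 WT with the smallest p among those whose hearts did not overlap included *Cxcr6* (chromosome 9, 123806475 to 123811760), the receptor that keeps effector T cells in tissue. *Cxcr6* was at 330, 290 and 320 CPM in BM12 WT and 180, 221 and 196 CPM in BM12 IL33 KO, a difference of 0.63 (SE 0.18, adjusted p = 0.998). *Nabp1*, a single-stranded DNA binding protein (chromosome 1, 51465862 to 51478425), was at 318 ± 101 CPM in BM12 WT and 174 ± 12.3 CPM in BM12 IL33 KO, with hearts between 227 and 427 CPM and between 162 and 186 CPM, and passed the threshold without heart 2 (1.00, adjusted p = 0.0299). *Cdk6*, a kinase of cell cycle entry, was at 188, 165 and 156 against 99.3, 71.5 and 106 CPM. *Ctla2a*, a protease inhibitor with a near-identical copy, was at 253, 200 and 268 against 131, 137 and 172 CPM. The remaining members were *Syngr2*, a vesicle membrane gene (108 ± 8.55 against 54.7 ± 9.03 CPM), *Zfand3* (83.5 ± 40.6 against 29.7 ± 8.01 CPM), the histone gene *Hist1h2bc* (62.5 ± 46.9 against 13 ± 13.4 CPM) and the long non-coding RNA gene *Dleu2* (56.6 ± 13.9 against 19.3 ± 1.30 CPM; SD, n = 3 each).

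Of the genes lower in BM12 WT, *Ikzf2* (chromosome 1, 69531214 to 69687245) had the smallest p. It encodes the transcription factor Helios, found in Tregs and in some activated T cells. Its level was 222, 102 and 220 CPM in BM12 WT and 471, 358 and 275 CPM in BM12 IL33 KO, a difference of -1.03 (SE 0.23, adjusted p = 0.531). In the 90 cells with fewer than 3 cell cycle genes, counted without thinning, it was -2.18 (adjusted p = 0.0423). These cells numbered 15, 6 and 33 in hearts 1 to 3 and 14, 9 and 13 in hearts 4 to 6, so few cells set some levels. Without the cells with a *Foxp3* UMI the *Ikzf2* difference was -0.74 (adjusted p = 0.997). Among the other T cells, *Ikzf2* was at 871 CPM in Tcm cells and 717 CPM in Tregs, against 289 CPM in Tem/eff cells. *Lrrc32*, the Treg surface gene that anchors latent TGF-beta, was at 2.05, 0 and 13.7 CPM against 23.2, 35.8 and 19.6 CPM, from 40 UMIs in all, and its difference of -1.32 (SE 0.40, adjusted p = 0.998) was -0.33 without the cells with a *Foxp3* UMI. *Foxp3* itself overlapped, at 28.2, 41.6 and 28.1 against 47.7, 84.0 and 11.1 CPM. Of the 9 Treg genes, 8 were lower in BM12 WT, 2 of them with an unadjusted p of 0.05 or less (2.32% over all genes), and the median was -0.09. Under limma-voom, and without heart 2 or heart 5, 5 of the 9 were lower.

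The other genes lower in BM12 WT by the same rule were *Plagl1*, a zinc finger transcription factor (154, 148 and 209 against 314, 329 and 210 CPM), *Fam98b* of the tRNA ligase complex (42.1 ± 35.3 against 95.7 ± 4.09 CPM) and *Sucla2* of the citric acid cycle (22.8 ± 10.4 against 61.1 ± 5.38 CPM). *Ap1g1*, a clathrin adaptor subunit (42.4 ± 20.5 against 88.7 ± 12.2 CPM), *Cpox* of haem synthesis (35.4 ± 22 against 83.8 ± 31.0 CPM), the interferon-inducible GTPase *Iigp1* (28.2 ± 12.6 against 67.5 ± 19.1 CPM) and *4833439L19Rik* (52.9 ± 4.04 against 101 ± 6.42 CPM; SD, n = 3 each) completed them. *Plagl1* was also among the genes that were higher in cells with a *Ccr7* UMI and lower in cycling cells.

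**Figure D4:**
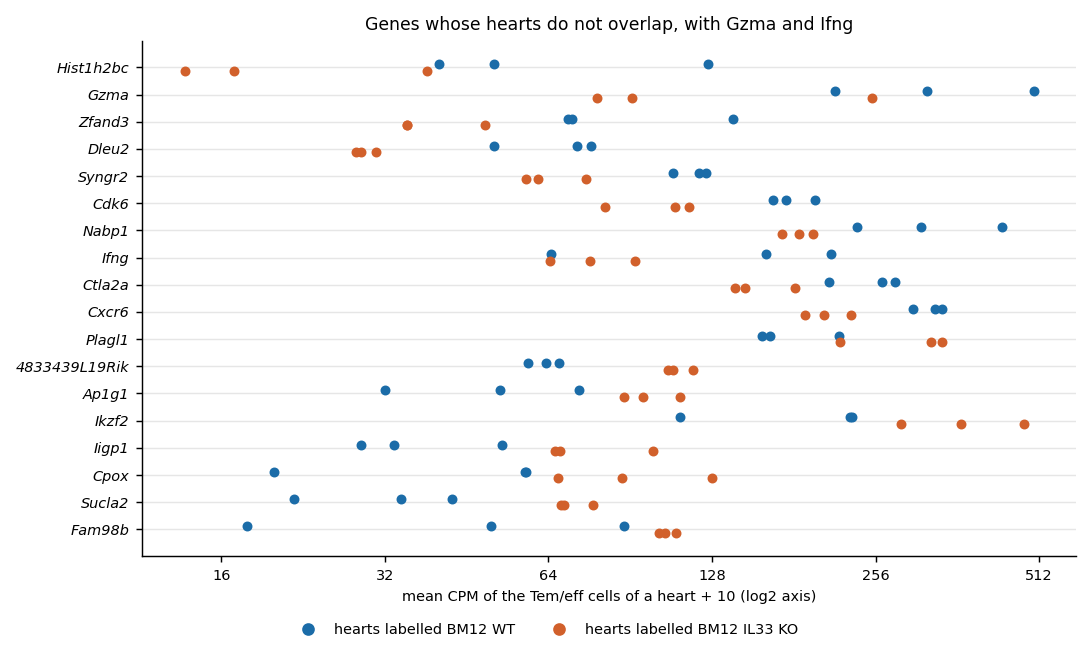
Mean CPM plus 10 of each heart's Tem/eff cells (horizontal log2 axis) for the 16 genes chosen because their hearts did not overlap, with *Gzma* and *Ifng*, 1 point per heart, blue for BM12 WT and orange for BM12 IL33 KO. The colours separate for the 16 chosen genes and overlap for *Gzma* and *Ifng*; none passed an adjusted p of 0.05.

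Of 15 interferon-stimulated genes, 12 were lower in BM12 WT, 3 of them with an unadjusted p of 0.05 or less (2.32% over all genes), and the median was -0.36. Of all 9392 genes, 4960 were lower in BM12 WT. The median of the interferon-stimulated genes was -0.21 without heart 4, -0.20 without heart 5 and -0.23 without cells with a *Foxp3* UMI. Without cells with 3 cell cycle genes it was -1.02, from 90 cells, of which heart 2 held 6 and heart 5 held 9. *Ifi27l2a* was at 589, 447 and 674 CPM against 882, 1827 and 576 CPM (-0.79, SE 0.23, adjusted p = 0.998), with heart 5 far above the rest and heart 6 inside the other group's range. *Igtp*, an interferon-induced GTPase, was at 64.1, 82.1 and 64.4 against 117, 138 and 88.0 CPM. Of 7 macrophage markers tested, 4 were lower and 3 higher in BM12 WT, with a median of -0.09. *C1qa* had the smallest p of them, with overlapping hearts at 7.63, 31.1 and 6.17 against 28.0, 76.7 and 16.1 CPM (-0.96), while *C1qb* was at 0.21, *Lyz2* at 0.11 and *Cd68* at 0.43. The 9 macrophage markers, all of them detected, summed to 123 to 220 CPM in BM12 WT and 129 to 352 CPM in BM12 IL33 KO, against 7475 CPM in macrophages, and their part in these values was not tested.

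All 13 genes of the glycolysis list were higher in BM12 WT (47.2% over all genes), with a median of 0.31. They were also all higher with summed UMIs, with centred hearts and with limma-voom, but 10 of 13 were higher without heart 1, and only *Tpi1* reached an unadjusted p of 0.05 (350, 187 and 179 against 145, 176 and 159 CPM). Their summed level was 4407 to 5700 CPM in BM12 WT and 3831 to 4334 CPM in BM12 IL33 KO. *Hif1a* overlapped, at 1424, 1712 and 1885 against 1212, 1594 and 1695 CPM. All 8 mitochondrial transcripts were lower in BM12 WT, by a median of -0.16 and with overlapping hearts for every one.

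Of the other 4 markers, 3 had overlapping hearts. *Cd4* was at 265, 412 and 329 against 235, 263 and 311 CPM (0.29, SE 0.19), *Ctla4* at 532, 741 and 1026 against 617, 659 and 714 CPM (0.16, SE 0.17) and *Icos* at 504, 420 and 574 against 463, 487 and 533 CPM (0.01, SE 0.16). *Cd3e* was at 548, 495 and 560 against 606, 630 and 567 CPM (-0.17, SE 0.15), and its hearts did not overlap. Of 28 cell cycle genes, none reached an unadjusted p of 0.05, and the medians were -0.05 for S phase (-0.24 to 0.07 with 1 heart left out) and -0.10 for G2 and M phase (-0.38 to 0.14), so that leaving out 1 heart turned their direction. *Ccr7* was at 860 ± 352 CPM in BM12 WT and 927 ± 473 CPM in BM12 IL33 KO (-0.04, SE 0.25). *Areg* was at 67.7, 58.6 and 179 against 101, 204 and 79.4 CPM (-0.36, SE 0.32, adjusted p = 0.998), and *Il1rl1* at 128, 0 and 31.3 against 53.1, 37.0 and 7.57 CPM (0.04, SE 0.56).

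**Figure D5:**
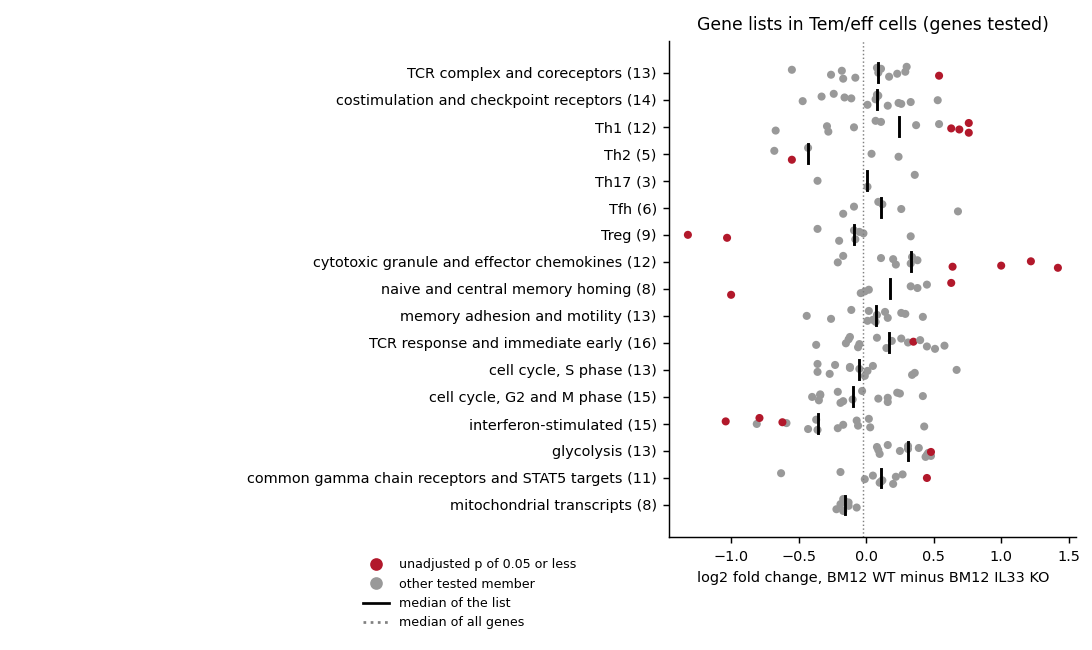
Log2 fold change of each tested member (horizontal axis, BM12 WT minus BM12 IL33 KO) for the gene lists on the vertical axis, with the number tested in parentheses; red points have an unadjusted p of 0.05 or less, black bars are list medians and the dotted line is the median of all genes. The list medians run from -0.43 (Th2, 5 genes) to 0.33 (granule and effector chemokine genes, 12 genes); under limma-voom these were -0.17 and 0.62, and without heart 5 they were -0.02 and 0.20.

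Whether Tem/eff cells responded to the graft genotype differently from the other T cells of the same hearts was tested as a difference of differences, within hearts. Against Tregs, 0 of 7218 genes were called (percent called 0), with 362 at an unadjusted p of 0.05 or less and a smallest adjusted p of 0.958. Against Tcm cells, 0 of 7640 genes were called (percent called 0), with 390 at an unadjusted p of 0.05 or less and a smallest adjusted p of 0.961. For *Ikzf2* the response differed from that of Tregs by -0.57 (SE 0.57, adjusted p = 0.964), for *Gzma* by 0.02 (SE 0.77, adjusted p = 0.999) and for *Cxcr6* by 0.47 (SE 0.57, adjusted p = 0.970). These intervals are wide, so like responses are not shown.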

How the data were processed

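Single-cell 3' gene expression and hashtag libraries were made from 6 pooled heart allografts. The authors aligned reads to mm10 with Cell Ranger, filtered cells on counts, genes and mitochondrial share, against doublets and dead cells, in Partek Flow (Partek version 10.0.23.0425, per the submitters' processing notes), and the deposited matrix holds, for each gene in each cell, log2(CPM + 1), alongside an annotation of 14 types, graft genotype and hashtag. The deposited cells held 1500 to 14977 UMIs. The commonest value of a cell was taken as 1 UMI, and dividing by it gave back the cell's UMIs (99.9% of low values within 0.05 of whole). Of 22337 symbols, 22 held a mean over several identifiers.

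Mean CPM over the Tem/eff cells of a heart was computed, 10 CPM was added before log2, and the groups were tested with limma 3.58.1 under R 4.3.3, with a mean-variance trend and Benjamini-Hochberg adjustment, on genes with 10 or more UMIs in all and detected in 3 or more hearts. The difference of responses was fitted to the within-heart difference of types. Hearts were the replicates; the labels do not say which recipient each came from, and how hashtags were assigned to cells is not given in the sources used here. For shares, an exact permutation test over hearts, two-sided, was used (scipy 1.17.1). Scripts were tested on simulated data. No further doublets were removed; Scrublet (scanpy 1.11.5) marked 6 cells by its own threshold, so 266 cells of highest score, 19 of them Tem/eff, were left out in an alternative. Coordinates are from GENCODE vM21 on GRCm38 by symbol. The markers, gene lists and tests were chosen with earlier results of these data known. Genes were named if they were markers, were called, were among the 8 in each direction with the smallest p whose hearts did not overlap at 50 CPM or more in a group, led a list by level, or were among the 15 with the highest ratio to the next T cell type; genes named in the comparisons within hearts, and list members named for their role or for an unadjusted p of 0.05 or less, were chosen after their values were seen. Markers of other cells were summed per heart: 9 macrophage, 8 NK, 6 B, 6 fibroblast, 5 endothelial, 6 neutrophil, 6 cardiomyocyte, 5 red blood cell, 5 gamma delta T, 7 ILC2 and 7 dendritic cell genes. Alternatives changed the pseudocount, filter, summing, centring, fit, cells and hearts. Some genes of these lists are counted but not reported here.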

Additional observations from a re-analysis of the deposited data

How the results depend on the processing

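The numbers of cells limit these results: 23 Tem/eff cells in heart 2 and 42 in heart 5, so a few cells set the level of a sparse gene. No paired analysis was possible because the labels and hashtags give the hearts of the groups no shared number, and nothing ties a heart of one group to a heart of the other. The count of called genes was 0 under another pseudocount, without the filter, with summed UMIs, with centred hearts, with limma-voom and without cells with Cd8, *Foxp3* or macrophage UMIs; it was 1 without the cells of highest doublet score (*Gzma*), 1 without cells with 3 cell cycle genes (*Ikzf2*), and 0 to 5 when 1 heart was left out. Without heart 2 the 5 genes were *Ccl3*, *Gzma*, *Hspa1b*, *Ifng* and *Nabp1*; without heart 3 the gene was *Ly6c2* and without heart 6 it was *Gzma*. The count at 2-fold and an unadjusted p of 0.05 was 68 and became 193 with a pseudocount of 1, 1 with 50, 230 with limma-voom, 119 without cells with a Cd8 UMI, 108 without macrophage UMIs, 214 without cells with 3 cell cycle genes, and 70 to 191 with 1 heart left out. A larger pseudocount shrinks fold changes by construction; the other causes were not tested.

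Of 36 genes followed under 17 alternatives, 29 kept their direction throughout. Many of the 36 were picked from these same data. A gene whose hearts did not overlap could not reverse when 1 heart was left out or the pseudocount was changed. For such genes a kept direction under those alternatives was fixed in advance and carries no support. Without cells with 3 cell cycle genes, *Cd3e* was 0.26, *Ctla4* -0.17, *Gzmb* -1.06 and *Junb* -0.09. Without cells with a Cd8 UMI, *Gzma* was -0.82, *Gzmb* -0.93 and *Icos* -0.06. Without macrophage UMIs, *Ctla4* was -0.10, *Icos* -0.05 and *C1qa*, itself such a marker, 0.02. With summed UMIs *Icos* was -0.03. With 1 heart left out *Ctla4* ran from -0.08 to 0.39 and *Icos* from -0.10 to 0.12.

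The difference of responses called 0 genes against Tregs and Tcm cells under each alternative run. With 1 heart left out, the share among T cells ran from -4.14 to 0.310 percentage points, that with 3 cell cycle genes from -3.69 to 0.0813, that with a Cd8 UMI from -5.55 to 1.61 and that with *Ifng* from -1.20 to 8.98. The *Ccr7* share, added after seeing the data, differed by 2.45 points (-1.52 to 6.97 with 1 heart left out) and by -1.80 without thinning. The shares among all cells and with *Cd4*, *Foxp3* or G2 and M genes kept their direction.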

Other observations

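Some cytokines of Tem/eff cells came from very few cells. *Il13*, the type 2 cytokine linked to repair, had 119 UMIs in 3 of 327 cells, 118 of them in 2 cells of heart 1, with 69 in 1 cell. *Il5* had 30 UMIs in 3 cells, 28 of them in 1 cell. *Il10* had 280 UMIs in 52 cells, and heart 3 held 153 of them. *Il21*, the follicular helper cytokine, was spread more thinly, with 24 UMIs in 16 cells and at most 3 in 1 cell, and *Il2* had 12 UMIs in 12 cells. *Areg* was found in 80 cells (262 UMIs), with at most 22 UMIs in 1 cell.

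Transcripts of other cells were low and did not part the groups, by summed CPM of each list. Haemoglobin and *Alas2* transcripts of red blood cells stood out in 1 heart of each group, so that their sum ran from 39.5 to 864 CPM in BM12 WT and from 57.0 to 2006 CPM in BM12 IL33 KO, with *Hbb-bs* at 459 CPM in heart 1 and 1144 CPM in heart 4. Fibroblast genes summed to 226 to 285 and 176 to 236 CPM, B cell genes to 113 to 218 and 72.6 to 212 CPM, NK cell genes to 95.1 to 261 and 115 to 446 CPM with *Ncr1* at 0, and dendritic cell genes to 309 to 640 and 244 to 821 CPM. Endothelial genes (38.6 to 70.9 and 39.8 to 59.3 CPM), neutrophil genes (9.06 to 22.1 and 14.3 to 21.1 CPM) and gamma delta T cell genes (13.6 to 33.6 and 1.55 to 22.2 CPM) were lower still. ILC2 genes, which include *Gata3*, summed to 212 to 465 and 321 to 514 CPM, with *Il17rb* at 0. Of 6 cardiomyocyte genes, *Myh6*, *Tnnt2* and *Nppa* had 0 UMIs, and the sum was at most 7.82 CPM.

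The list of memory adhesion genes had 10 of 13 higher in BM12 WT (median 0.07), that of early response genes 10 of 16 (median 0.17), that of T cell receptor genes 8 of 13 (median 0.09), that of common gamma chain genes 8 of 11 (median 0.11), that of costimulation genes 9 of 14 (median 0.08), that of homing genes 5 of 8 (median 0.18), that of follicular helper genes 4 of 6 (median 0.11), that of Th17 genes 2 of 3 (median 0.01) and that of Th2 genes 2 of 5 (median -0.43). With 1 heart left out, the medians ran from 0.02 to 0.16 for T cell receptor genes, 0.01 to 0.30 for early response genes, 0.08 to 0.15 for common gamma chain genes, -0.72 to -0.02 for Th2 genes and -0.36 to 0.22 for Th17 genes. Direction turned for homing genes without heart 5 (-0.14) and for costimulation genes without heart 3 (-0.10), and for memory adhesion genes 6 of 13 were higher without heart 1. For follicular helper genes 3 of 6 were higher without heart 3 or heart 4, and the median was -0.06 with summed UMIs. Of all genes tested, 47.2% were higher in BM12 WT. No member of any of these lists passed an adjusted p of 0.05 in limma. *Junb* was at 3012, 2299 and 5003 CPM in BM12 WT and 2253, 2943 and 2500 CPM in BM12 IL33 KO, where heart 3 was above the other 5.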
